A study of Mus musculus with 3 samples.

Results

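The genes described here are 45 lysosomal genes of mouse macrophages, chosen by name from a fixed list out of 55536 gene entries in the deposited gene tables. The list holds soluble hydrolases and their activators, membrane proteins and the MiT family of transcription factors, and it leaves out the cathepsins and the proton pump. RNA came from primary macrophages of C57BL/6J mice grown from bone marrow, and polyA-selected RNA was sequenced. All 3 libraries belong to 1 group, biological replicates 1, 2 and 3, stimulated at 100 ng/mL for 480 min. The descriptions call the agent Lipid A and the treatment fields call it lipoprotein A, and nothing in the labels settles which name is right. Sex and age were not collected. The replicates have separate sample records and the same donor record, so the spread between them may be in part technical. With no unstimulated library in the group, the levels cannot be set against a resting state, and no response to the stimulus can be given.

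Lysosomes break down material that macrophages take up by phagocytosis and endocytosis. Soluble hydrolases reach them through mannose 6-phosphate receptors, each cutting 1 kind of bond in glycolipids, glycosaminoglycans, glycoproteins, lipids or proteins, and small activator proteins lift lipids out of membranes for some of them. Loss of single hydrolases causes lysosomal storage diseases. Tfeb, Tfe3 and Mitf are basic helix-loop-helix factors of the MiT family that bind E-boxes in the promoters of many lysosomal genes, and the longer E-box form found there is known as the CLEAR element.

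Because these factors are among the 45 genes, the promoters were searched for the E-box core CACGTG, which reads the same on both strands, and for 2 longer forms on both strands, GTCACGTG and TCACGTGA, each of which contains the core. The windows are from RefSeq (GRCm38.p6) and run from 250 bases before to 50 after each annotated start. They were found for 40 of the 45 genes; Asah1, Galns, Hgsnat, Npc1 and Plbd2 had no entry. The core stood in a window of 10 of these 40 genes (25.0%), against 8.09% of all 27025 genes with a window and 7.15% of the 32851 windows. The 8-base form GTCACGTG stood in 9 of 40 (22.5%), against 2.55% of all genes and 2.25% of all windows. The symmetric form TCACGTGA stood in 3 of 40 (7.5%), Gla, Cln3 and Mcoln1, against 1.12% of all genes and 0.974% of all windows. A match is a description of the letters only, and a window without one says nothing about binding.

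Lamp1, which encodes a main glycoprotein of the lysosomal membrane, held the most matches, 4 cores in the last 80 bases before its start. Those bases are shown with the cores in capitals (GRCm38.p6, chr8:13159081-13159160, plus strand):
Lamp1: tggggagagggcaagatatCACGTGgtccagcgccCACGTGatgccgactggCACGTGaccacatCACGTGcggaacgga

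The 30-base windows around the GTCACGTG matches of the other 8 genes follow, with 2 such matches in Mcoln1, read on the gene's strand, again with the core in capitals; they are shown to let the flanking bases be compared. They lie at chr12:102439124-102439153 (Lgmn, minus strand), chrX:134601182-134601211 (Gla, minus), chr7:126583340-126583369 (Cln3, minus), chr9:114401018-114401047 (Glb1, plus), chr11:101070009-101070038 (Naglu, plus), chr8:3500436-3500465 and chr8:3500462-3500491 (Mcoln1, plus), chr15:89477423-89477452 (Arsa, minus) and chr11:119355522-119355551 (Sgsh, minus).
Lgmn: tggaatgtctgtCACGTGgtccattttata
Gla: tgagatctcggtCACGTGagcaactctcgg
Cln3: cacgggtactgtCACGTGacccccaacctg
Glb1: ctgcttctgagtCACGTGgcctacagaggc
Naglu: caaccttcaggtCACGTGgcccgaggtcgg
Mcoln1, upstream match: ggtcgcgcttgtCACGTGttcagttcaggc
Mcoln1, downstream match: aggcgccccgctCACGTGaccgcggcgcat
Arsa: tcaactcagtgtCACGTGttgtctgctcct
Sgsh: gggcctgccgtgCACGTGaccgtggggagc

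In all, the 10 genes held 16 cores, 11 of them within 100 bases before the RefSeq start, and 4 genes held more than 1. The GENCODE M21 genes behind the levels can start elsewhere. There the cores of Lgmn, Cln3 and Naglu and the downstream core of Mcoln1 lie inside the gene, and that of Sgsh straddles its start. Gaa held the core without the longer form. The genes with a core covered nearly the whole range of levels, from Sgsh at 1.30 to Lamp1 at 1891 TPM (a length-corrected share of the library's transcripts), with a median of 72.2 TPM. The 30 without a core had a median of 109 TPM, between 6.07 and 9573 TPM. The ranges overlapped widely.

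**Figure D1:**
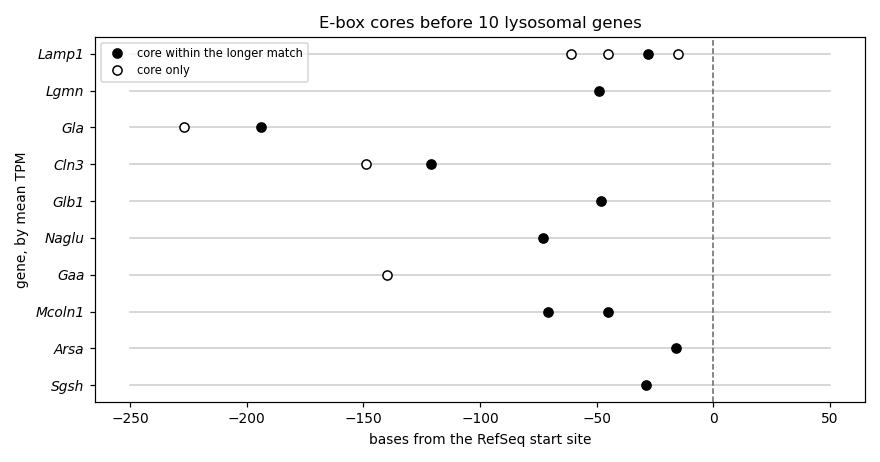
Position of each E-box core (x axis, bases from the RefSeq start site) in the promoter windows of 10 lysosomal genes (y axis, ordered by mean TPM). Filled circles are cores within the 8-base form and open circles are cores alone; 11 of the 16 cores lie within 100 bases before the start, and Lamp1 holds 4.

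The libraries held 26589042, 34344922 and 48356527 expected counts, and the 45 genes took 4.49%, 4.76% and 4.68% of them. Macrophage markers were all present, 8 of 8 at 1 TPM or more in every library, from Itgam at 65.1 TPM to Lyz2 at 12920 TPM. They summed to 19400, 14590 and 15940 TPM, mostly Lyz2 (15720, 10770 and 12260 TPM). Of the 8, 5 were highest in replicate 1, against 30.6% of detected genes, 2 in replicate 2 and 1 in replicate 3. Fibroblast markers (0 of 6 detected) and B and T cell markers (0 of 7, with Cd3d and Cd3g at 0 counts throughout) were near the floor. Neutrophil markers set replicate 2 apart: 10 of 11 were highest there, against 46.3% of detected genes, though only 3 of the 11 were detected. Among the 10, Cxcr2 was tied at 0.03 TPM in replicates 2 and 3. The summed level of the 11 was 228, 564 and 191 TPM in replicates 1, 2 and 3. Csf3r, the exception, was lowest in replicate 2 at 205, 142 and 170 TPM and made up most of the sums of replicates 1 and 3. Elane, Mpo, Ly6g and Retnlg were at 0 in the other 2 libraries. Dendritic cell markers summed to 52.0, 64.1 and 31.1 TPM, with 3 of 8 detected. Of the 8, 5 were highest in replicate 2, against 46.3% of detected genes, 1 in replicate 1 and 2 in replicate 3. Fscn1, highest in replicate 1 at 44.1, 36.1 and 18.5 TPM, made up most of the sum in each library. The single entry CT010467.1, annotated as ribosomal RNA, took 26770, 17110 and 64240 TPM, which lowers every other TPM in a library by that share. In RNA from many cells, fewer cells of a type and less RNA per cell cannot be told apart.

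All 45 genes were detected, meaning at least 1 TPM in each of the 3 libraries, against 17.9% of all gene entries. Their summed level was 29960, 32900 and 33400 TPM. Gpnmb rose in the same order, at 5607, 8117 and 8805 TPM. With protein-coding transcripts only it was at 5026, 5319 and 5799 TPM, so the rise of the sum depends on how its transcripts were counted. Of the 45, 8 had a mean of 1000 TPM or more, 12 lay from 100 to below 1000, 22 from 10 to below 100 and 3 below 10, and 40 lay above the median detected gene (13.96 TPM). The highest stood 7364-fold over the lowest. Psap and Gpnmb alone made up 51.1%, 54.1% and 54.3% of the summed level, and the top 8 genes 83.8%, 84.9% and 85.2%.

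**Figure D2:**
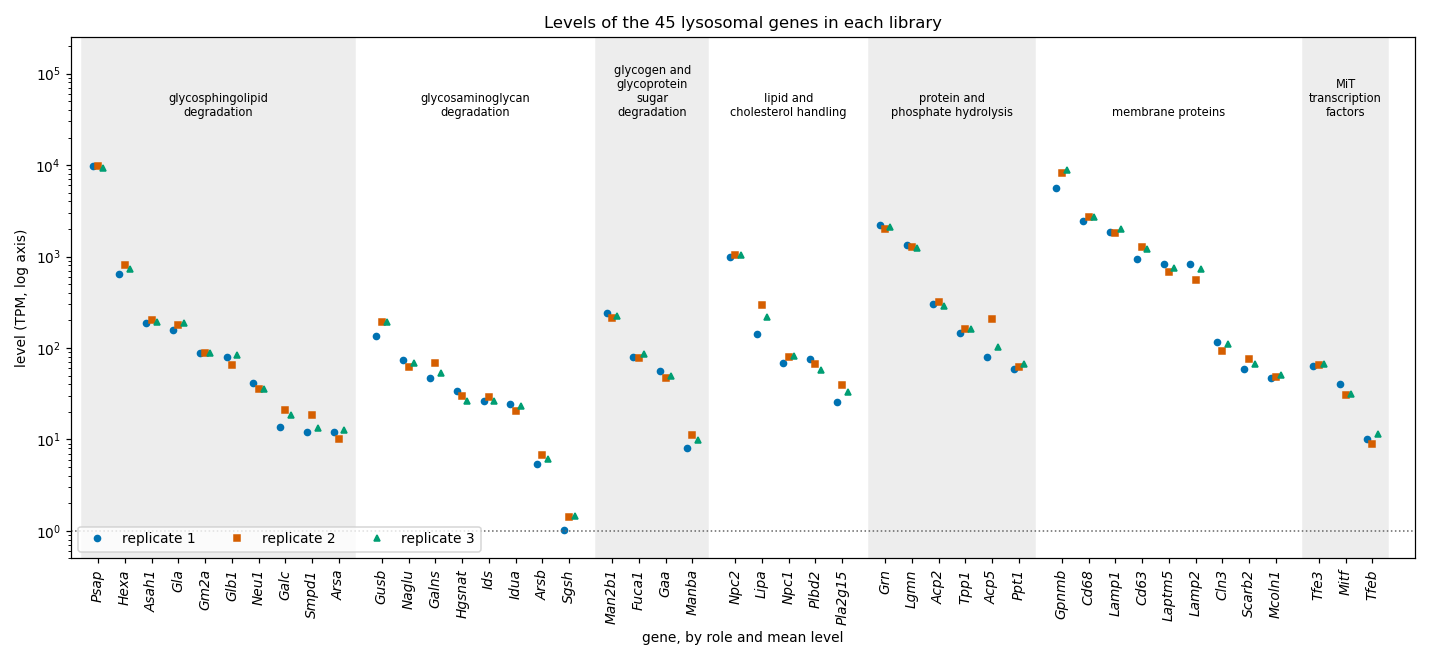
Level of each of the 45 genes in TPM (y axis, log scale), grouped by role and ordered by mean level (x axis); each marker is 1 library. Levels run from 1.30 TPM (Sgsh) to 9573 TPM (Psap), and the 3 libraries of most genes lie close together. The dotted line is at 1 TPM.

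Glycosphingolipid degradation was led by an activator and not by an enzyme. Psap, which encodes prosaposin, the precursor of the saposins that present sphingolipids to their hydrolases (chr10:60277627-60302597, plus strand), was at 9713, 9688 and 9318 TPM (9573 ± 221, SD, n = 3), the highest of the 45 and among the least variable. Hexa, the alpha subunit of beta-hexosaminidase, was at 638, 802 and 722 TPM. Hexa was lowest in replicate 1 and highest in replicate 2. Gm2a, which encodes the activator that hands GM2 ganglioside to the enzyme, was nearly the same in all libraries at 87.9, 89.1 and 87.4 TPM. It lay 8.13-fold under Hexa.

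Asah1 (acid ceramidase) was at 187, 203 and 195 TPM. Gla (alpha-galactosidase A) was at 156, 177 and 190 TPM. Both Gla and Asah1 stayed well above the exoglycosidases that follow. Glb1 (lysosomal beta-galactosidase) was at 79.1, 65.4 and 83.5 TPM. Neu1 (sialidase), which works in 1 complex with Glb1, was at 41.1, 35.7 and 36.0 TPM, and Glb1 was 2.01-fold higher in 3 of 3 libraries. The lowest of the group were 3 enzymes that act on sulfatide, galactosylceramide and sphingomyelin. Arsa (arylsulfatase A) was at 12.2, 10.1 and 12.6 TPM. Galc (galactosylceramidase) was at 13.8, 20.8 and 18.7 TPM, and Smpd1 (acid sphingomyelinase) at 11.96, 18.4 and 13.3 TPM. Galc and Smpd1 were both lowest in replicate 1 and highest in replicate 2, whereas Arsa was lowest in replicate 2. The group summed to 10940, 11110 and 10680 TPM, of which Psap was by far the largest term.

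Genes of glycosaminoglycan degradation sat lower, with a median of 28.6 TPM over 8 genes. Gusb (beta-glucuronidase) led at 135, 191 and 191 TPM, lower in replicate 1 than in the others. Among the enzymes of heparan sulfate breakdown, Naglu (alpha-N-acetylglucosaminidase) was at 74.7, 61.5 and 68.9 TPM. Sgsh (heparan N-sulfatase, chr11:119343425-119355536, minus strand) was at 1.03, 1.42 and 1.45 TPM. Sgsh was the lowest of all 45 genes, 49.2-fold under Naglu, and rested on 73, 135 and 189 expected counts. Hgsnat, the membrane-bound acetyltransferase of the same pathway, was at 34.2, 29.8 and 26.1 TPM.

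The remaining sulfatases and iduronidase lay between these. Galns (the sulfatase of keratan and chondroitin sulfate) was at 46.7, 68.4 and 52.7 TPM, highest in replicate 2. Ids (iduronate 2-sulfatase) was at 26.5, 28.8 and 26.2 TPM and Idua (alpha-L-iduronidase) at 24.4, 20.4 and 23.2 TPM. Ids and Idua, which act one after the other, were the only pair of 17 compared that did not stand apart under the rule used: a difference of 1 sign in 3 libraries with a mean over 2 SD. Their mean log2 difference was 0.26 ± 0.20. They did stand apart without replicate 2, at 0.15, a smaller difference called by a rule then resting on 2 libraries. With protein-coding transcripts only, at 0.35, they stood apart as well. Arsb (arylsulfatase B) was at 5.40, 6.72 and 6.08 TPM. On whole-gene levels Arsb was 1.90-fold under Arsa. In the second quantification the difference was smaller (log2 0.62) and the pair no longer stood apart. With protein-coding transcripts only, the difference turned round (log2 -0.45), and again the pair did not stand apart.

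In glycogen and glycoprotein sugar degradation, Man2b1 (lysosomal alpha-mannosidase) was at 240, 214 and 223 TPM. Manba (beta-mannosidase), which cuts the next bond of the same chains, was at 8.07, 11.2 and 9.81 TPM. Man2b1 stood 23.2-fold over Manba. Fuca1 (alpha-L-fucosidase) was at 79.0, 78.4 and 85.6 TPM, and Gaa (acid alpha-glucosidase, which degrades glycogen) at 55.9, 47.3 and 49.5 TPM. The 4 genes summed to 383, 351 and 367 TPM, and none of them reached a 1.5-fold range between libraries.

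For cholesterol and lipids, the soluble carrier exceeded the membrane transporter. Npc2, which binds cholesterol in the lumen, was at 997, 1042 and 1046 TPM. Npc1, which receives it in the membrane, was at 69.4, 79.8 and 81.7 TPM, 13.4-fold lower, or 23.1-fold lower with protein-coding transcripts only. Lipa (lysosomal acid lipase, chr19:34492318-34527474, minus strand), which frees that cholesterol from its esters, was at 142, 296 and 216 TPM. Lipa differed in all libraries, lowest in replicate 1 and highest in replicate 2, a 2.09-fold range. Pla2g15 (lysosomal phospholipase A2) was at 25.4, 39.5 and 32.7 TPM, in the same order of libraries as Lipa. Plbd2, a phospholipase B-like protein, was at 75.6, 67.6 and 57.1 TPM, highest in replicate 1, and stood 2.07-fold over Pla2g15.

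Protein and phosphate hydrolysis held some of the most abundant transcripts. Grn (progranulin, a precursor that is cut to granulins in the lysosome) was at 2240, 1997 and 2109 TPM, and Lgmn (legumain, an asparaginyl endopeptidase that processes cathepsins) at 1333, 1284 and 1244 TPM. Both varied little between libraries. Tpp1 (tripeptidyl peptidase) was at 147, 160 and 162 TPM. Ppt1 (palmitoyl-protein thioesterase) was at 59.0, 62.6 and 66.7 TPM, and the ratio of Tpp1 to Ppt1, 2.49-fold, was nearly constant (SD of the log2 difference 0.03). Acp2 (lysosomal acid phosphatase) was at 305, 320 and 289 TPM. Acp5 (tartrate-resistant acid phosphatase, chr9:22126727-22135711, minus strand) was at 79.6, 209 and 103 TPM. It had the widest range of all 45 genes, 2.62-fold, through replicate 2. Acp2 stood 2.55-fold over Acp5, with a wide spread (log2 difference 1.35 ± 0.67), and the pair no longer stood apart without replicate 1 (1.06), without replicate 3 (1.28) or with protein-coding transcripts only (1.08).

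The membrane proteins were the most abundant group by median, 754 TPM over 9 genes. Gpnmb, a type I glycoprotein of macrophages and osteoclasts (chr6:49036546-49070929, plus strand), was at 5607, 8117 and 8805 TPM, lowest in replicate 1. Cd68, a macrophage member of the LAMP family, was at 2434, 2708 and 2708 TPM. Cd63, a tetraspanin of late endosomes, was at 948, 1273 and 1202 TPM and lay 2.31-fold under Cd68; Cd63 also has an annotated pseudogene, Cd63-ps, that could share its reads. Lamp1 was at 1842, 1819 and 2013 TPM. Lamp2, its paralog, was at 824, 553 and 739 TPM, lowest in replicate 2, and lay 2.72-fold under Lamp1 in 3 of 3 libraries.

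Laptm5, a transmembrane protein of blood cell lysosomes, was at 826, 686 and 749 TPM, like Lamp2 lowest in replicate 2. Cln3, whose loss causes juvenile Batten disease, was at 115, 92.3 and 110 TPM. Scarb2, which carries beta-glucocerebrosidase to lysosomes, was at 58.5, 75.2 and 66.1 TPM. Mcoln1, the calcium channel that acts upstream of Tfeb, was at 47.3, 47.8 and 50.2 TPM, nearly the same in all libraries. Summed over the 9 genes, the level was 12700, 15370 and 16440 TPM. Gpnmb was the largest term in each library, and the limit on its range, given below, applies to this sum.

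Of the transcription factors, Tfe3 was the most abundant at 63.5, 65.5 and 67.3 TPM. Mitf was at 40.4, 30.6 and 31.2 TPM, and Tfeb was at 10.2, 8.86 and 11.4 TPM. The order was Tfe3, Mitf, Tfeb in every library. Tfe3 stood 1.93-fold over Mitf and 6.43-fold over Tfeb, and Mitf 3.33-fold over Tfeb, each in 3 of 3 libraries and by more than 2 SD. Most Mitf level (85.9% ± 0.95, SD, n = 3) came from Mitf-202, which starts at chr6:97807058, and 10.5% from Mitf-208, which starts further downstream at chr6:97991921. Tfe3 was spread over several coding transcripts, with Tfe3-204 at 32.9%, 23.0% and 26.3%.

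Ordered by mean level, 9 of the 44 neighbouring pairs stood apart by the same rule, which cut the list into 10 runs whose neighbours did not differ beyond their spread. Psap and Gpnmb came first. Cd68, Grn and Lamp1 formed the next run, Lgmn, Cd63 and Npc2 followed, and then Laptm5, Hexa and Lamp2. Acp2 stood alone. A run of 20 genes reached from Man2b1 (226 TPM) to Mcoln1 (48.4 TPM), and a run of 9 from Neu1 (37.6 TPM) to Arsa (11.6 TPM). Tfeb and Manba, then Arsb, then Sgsh closed the order. Without replicate 2, 14 neighbouring pairs stood apart, by a rule then resting on 2 libraries.

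The transcript tables show which forms made up these levels. In 44 of 45 genes the leading transcript was protein-coding, in 23 it took 90% or more of the gene's TPM, and Hexa and Gm2a have 1 annotated transcript. The leading transcript was the same in both deposited quantifications for 43 of 45; Gaa and Cln3, each split over several coding forms, were the exceptions. The median share on protein-coding transcripts was 96.8%, beside 96.6% over 9238 detected genes. Under 75% on such transcripts was found for 5 of 45 members, against 17.2% of those genes. In the second quantification it was found for 8 of 45, against 20.4% of 9231 genes: Arsa, Manba and Fuca1 were in both sets, Npc1 and Gpnmb were not in the second, and Asah1, Plbd2, Tpp1, Acp2 and Cln3 joined it.

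The 5 of the first quantification were Arsa, Npc1, Fuca1, Manba and Gpnmb. In Arsa, a retained-intron transcript, Arsa-201, led at 59.4%, 64.2% and 62.6%, and 61.3%, 58.8% and 57.1% in the second quantification. Arsa also overlaps an antisense gene, C230037L18Rik. With protein-coding transcripts only, Arsa lay below Arsb (log2 difference -0.45), the reverse of the whole-gene order. In Npc1, the retained-intron form Npc1-206 took 43.7%, 41.6% and 42.9%, but 26.1%, 15.9% and 20.8% in the second quantification. The share thus differed more between the quantifications than between the libraries.

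In Fuca1, Manba and Gpnmb the other form was short, so that few reads carried a large TPM share. Fuca1-205, of 401 bases, took 37.3%, 45.2% and 35.3% of the gene's TPM on 78, 109 and 129 expected counts. Manba-205, of 276 bases, took 21.5%, 43.7% and 27.2% on 2, 5 and 4 expected counts. Gpnmb-202, a 365-base transcript annotated for nonsense-mediated decay with an effective length of 121, 101 and 104 bases, took 9.36%, 34.2% and 33.5% on 1100, 6590 and 9884 expected counts. In the second quantification Gpnmb-202 took 0.830%, 0.853% and 1.39%. The main coding form Gpnmb-201 took 85.5%, 62.8% and 62.6% in the first and 85.7%, 90.1% and 86.9% in the second.

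**Figure D3:**
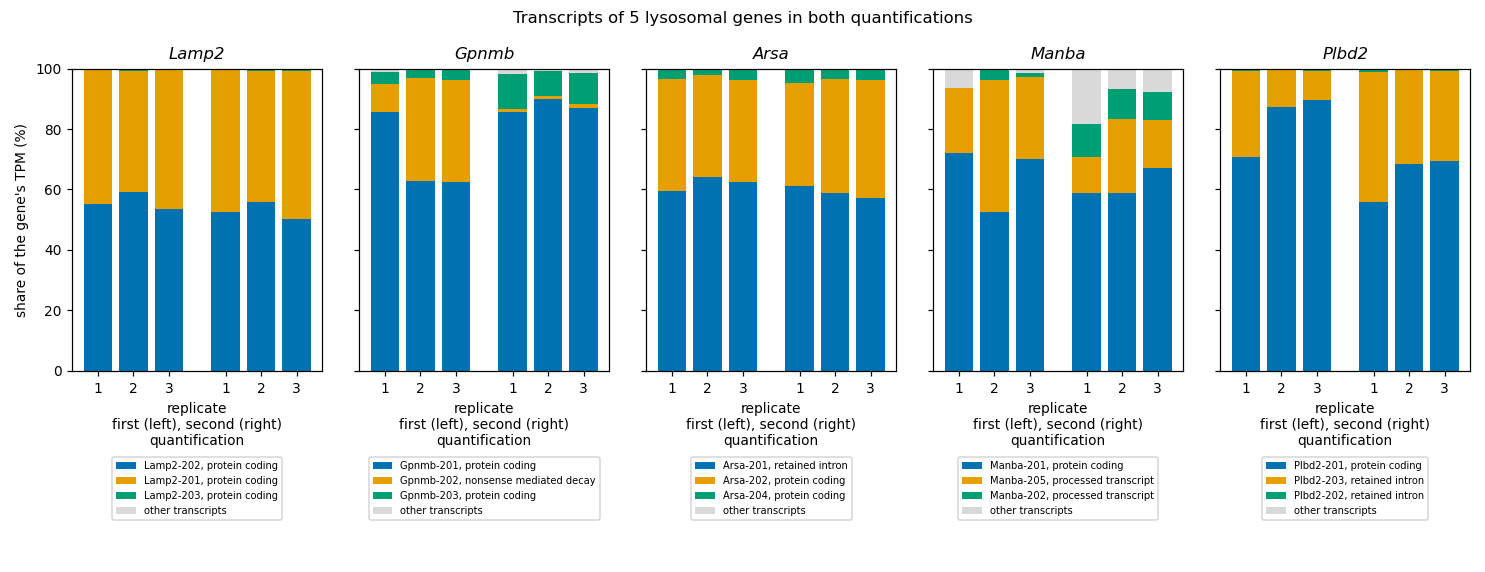
Share of each gene's TPM (y axis, percent) by transcript in Lamp2, Gpnmb, Arsa, Manba and Plbd2; bars are replicates 1 to 3, from the first quantification on the left and the second on the right of each panel. Lamp2 and Arsa shares are similar in both, and Gpnmb-202 falls from up to 34.2% in the first to at most 1.39% in the second.

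Lamp2 was split between 2 coding forms in every library. Its transcripts share their first 1109 coding bases and differ in the last coding exon, which encodes the membrane anchor and the short cytoplasmic tail. The known forms are LAMP-2B (Lamp2-202), LAMP-2A (Lamp2-201), the form that serves chaperone-mediated autophagy, and LAMP-2C (Lamp2-203). The last 60 coding bases of each are shown because only this end tells them apart; capitals mark the codon pair that opens the tyrosine-based lysosomal sorting signal. They lie on the minus strand of chromosome X (GRCm38), at chrX:38421712-38421771, chrX:38405432-38405491 and chrX:38402139-38402198, and were read from GENCODE M21 transcripts.
Lamp2-202: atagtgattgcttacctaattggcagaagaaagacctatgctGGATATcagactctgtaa
Lamp2-201: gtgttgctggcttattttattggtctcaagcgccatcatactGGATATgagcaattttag
Lamp2-203: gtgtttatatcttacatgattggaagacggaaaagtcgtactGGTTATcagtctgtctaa

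Lamp2-202 made up 55.1%, 59.1% and 53.7% of the Lamp2 level and Lamp2-201 44.3%, 40.3% and 45.7%, while Lamp2-203 stayed at 0.371%, 0.374% and 0.353%. The second quantification gave 52.6%, 55.9% and 50.3% for Lamp2-202. The order Lamp2-202 over Lamp2-201 held in 3 of 3 libraries in both quantifications, and the library with the lowest Lamp2 level, replicate 2, had the highest share of Lamp2-202.

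Several Psap forms differ from the leading Psap-202 by a few coding bases at 1 splice junction, after coding base 774. Psap-205 includes a 9-base exon (chr10:60297537-60297545, plus strand) and Psap-201 a 6-base extension of the next exon; the added bases are in capitals, with 20 coding bases on each side.
Psap-202: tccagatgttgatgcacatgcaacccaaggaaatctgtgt
Psap-205: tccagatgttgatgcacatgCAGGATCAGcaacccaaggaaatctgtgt
Psap-201: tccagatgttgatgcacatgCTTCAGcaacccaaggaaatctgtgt

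Psap-202, which has no added bases there, took 89.2%, 95.1% and 95.6% of the Psap level. Psap-205 took 1.32%, 2.48% and 1.67%, and Psap-201 0.562%, 0.839% and 0.734%. Psap-204, which carries 9 other bases at the junction, took 0.166%, 0.257% and 0.235%. Shares this small rest on the reads that cross the junction. Psap-203 starts downstream at chr10:60284461, and its bases at the junction were not compared. It took 8.76% in replicate 1 but 1.36% and 1.75% in the others. In the second quantification it took 9.86%, 0.553% and 0.761%, so that replicate 1 stood apart in both quantifications. The same library stood apart for Plbd2, where the retained-intron form Plbd2-203 took 28.3%, 12.2% and 9.68%, and 43.0%, 31.1% and 29.8% in the second quantification.

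How far the libraries differed was asked in 2 ways. A chi-square test on TMM-scaled expected counts, with 2 degrees of freedom and Benjamini-Hochberg adjustment over 12404 genes, found more than counting error in 41 of 45 genes, against 70.9% of all genes tested. Ids, Arsb, Sgsh and Mcoln1 were the 4 that did not pass. Most members have deep counts, from 73 for Sgsh in replicate 1 to 705347 for Psap in replicate 3, so small differences pass. Where the mean count reached 1000, a limit chosen after seeing the data, the share was 90.8% of genes, and 37 of 39 members there passed, near that background.

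The sizes of these differences were small. The median coefficient of variation was 9.70% over the 45 genes and 15.5% over all detected genes, a background not matched for level. A range of 1.5-fold or more between the highest and the lowest library was found for 6 of 45, Acp5, Lipa, Gpnmb, Pla2g15, Smpd1 and Galc, against 33.0% of detected genes. Among detected genes with a mean of at least 10 TPM, again a limit chosen afterwards, it was found for 24.7% of all and for 6 of 42 members. In gene TPM, 2 of 45, Acp5 and Lipa, passed 2-fold, against 10.04% of detected genes, and 20 of 45 stayed within 1.2-fold, against 26.6%. These shares were not matched for level either. In the second quantification 5 of 45 passed 2-fold (Acp5, Lipa, Sgsh, Smpd1 and Pla2g15), against 13.2%. Sgsh, Smpd1 and Pla2g15 passed narrowly, at 2.04-, 2.03- and 2.01-fold, each lowest in replicate 1. That quantification also shifted the median detected gene by 1.24-fold more in replicate 1 than in replicate 2, and these ranges were not rescaled for it. The count at 1.5-fold was 1 (Acp5) without replicate 1, 2 (Lipa and Gpnmb) without replicate 2 and 5 without replicate 3. The share of detected genes moved down with it, to 16.3%, 11.5% and 24.7%. A range over 2 libraries cannot exceed that over the 3 that hold them, so the count could only stay or fall. The highest library was replicate 1 for 14 members, replicate 2 for 15 and replicate 3 for 16, against 30.6%, 46.3% and 23.2% of detected genes.

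**Figure D4:**
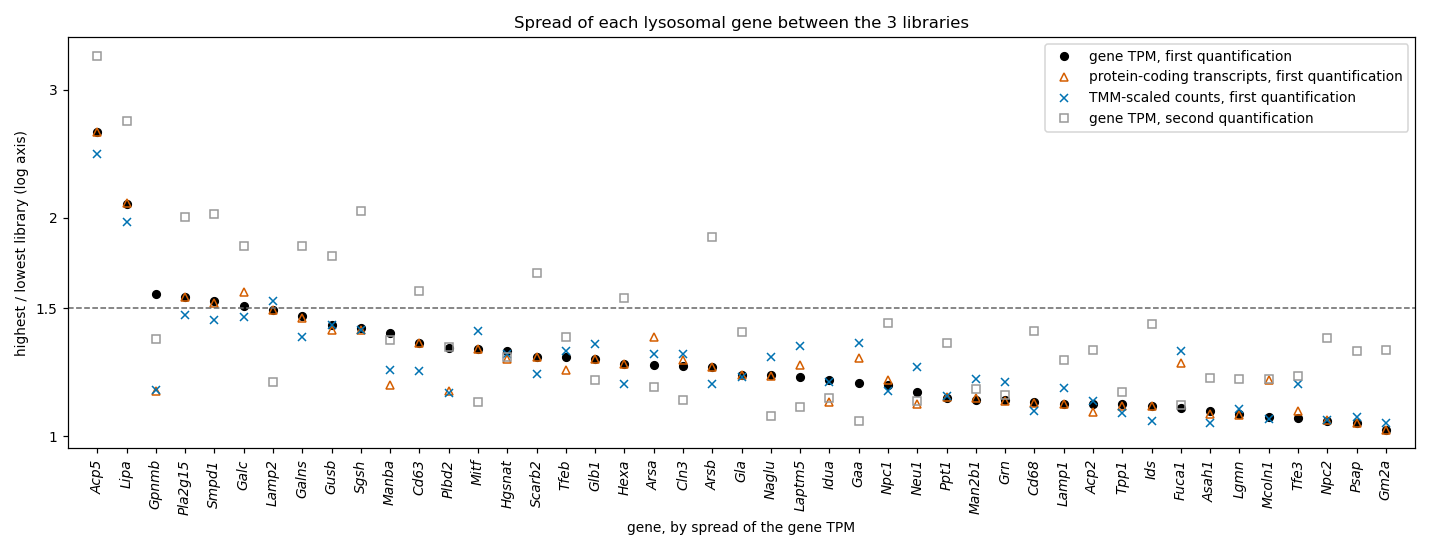
Ratio of the highest to the lowest library (y axis, log scale) for each of the 45 genes, ordered by the ratio in gene TPM (x axis); filled circles are gene TPM, triangles protein-coding transcripts only, crosses TMM-scaled counts and squares the second quantification. The dashed line is at 1.5; Acp5 and Lipa lie above it in all 4 measures, and Gpnmb only in gene TPM.

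The range of Gpnmb depended on which transcripts were counted. It was 1.57-fold in gene TPM, 1.15-fold with protein-coding transcripts only and 1.16-fold in TMM-scaled counts with no length term. In TMM-scaled counts per effective length it was still at least 1.5-fold, and in the second quantification Gpnmb was at 3749, 5108 and 5043 TPM, a 1.36-fold range. Galc (1.51-fold), Smpd1 (1.54-fold) and Pla2g15 (1.56-fold) were near the limit, and their side of it moved with the scaling. In TMM-scaled counts they were at 1.46-, 1.44- and 1.47-fold, in counts scaled to library totals at 1.61-, 1.59- and 1.62-fold, and in the second quantification at 1.83-, 2.03- and 2.01-fold. Lamp2 was at 1.49-fold in TPM, 1.54-fold in TMM-scaled counts, 1.39-fold on library totals and 1.19-fold in the second quantification. Acp5 (2.70-fold on library totals and 2.45-fold in TMM-scaled counts) and Lipa (2.18- and 1.97-fold) stayed above 1.5-fold on every scale used here.

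Acp5 encodes the enzyme that marks osteoclasts, which share a precursor with macrophages, so the osteoclast markers are given beside it. Acp5 was at 79.6, 209 and 103 TPM, and 9 osteoclast markers summed to 34.6, 105 and 71.0 TPM. Of the 9 markers, 6 were highest in replicate 2 as well, against 46.3% of detected genes. Only 3 of the 9 were detected, and the 6 include Oscar and Ocstamp, both near 0. Atp6v0d2, a proton pump subunit, was at 26.7, 92.7 and 58.6 TPM and made up most of that sum. Itgb3 was at 0.47, 2.34 and 1.05 TPM. Dcstamp, which drives cell fusion, was at 0.12, 0.83 and 0.29 TPM, and Mmp9 at 0.24, 0.71 and 0.11 TPM. The defining markers Calcr, Oscar and Ocstamp were at or near 0, none above 0.08 TPM. Ctsk and Nfatc1 were highest in replicate 3, at 1.52, 2.87 and 3.61 TPM and 5.45, 5.32 and 7.24 TPM. Replicate 2 is also the library with the neutrophil transcripts, S100a9 at 14.8, 237 and 12.4 TPM and Ngp at 0.96, 43.3 and 1.00 TPM. The part of either cell type in the Acp5 and Lipa levels was not tested.

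**Figure D5:**
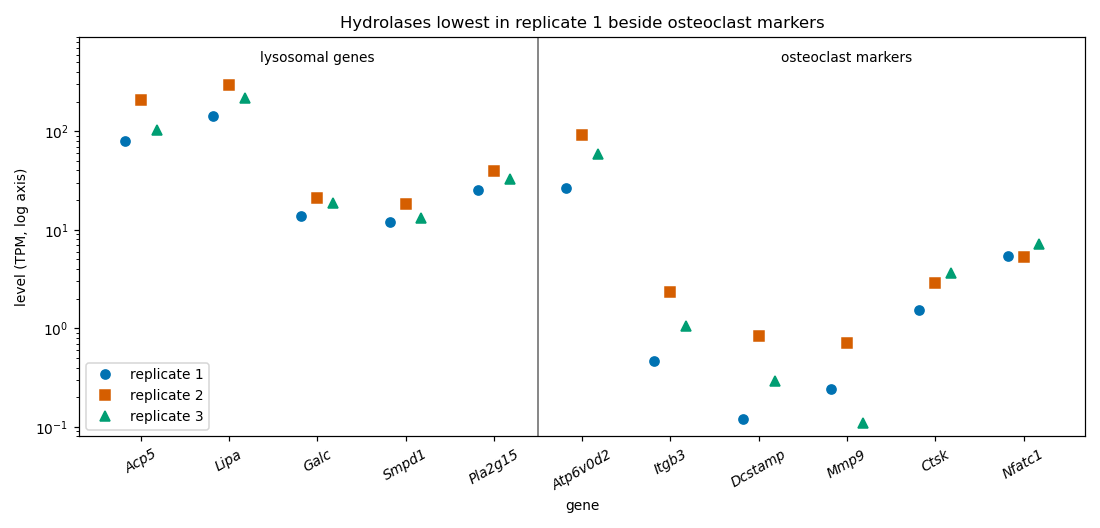
Levels in TPM (y axis, log scale) of 5 hydrolase genes with a range of at least 1.5-fold (left) and of the 6 most abundant osteoclast markers (right); each marker is 1 library. The 5 hydrolases and Atp6v0d2, Itgb3 and Dcstamp are lowest in replicate 1 and highest in replicate 2, unlike Ctsk and Nfatc1.

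Other lysosomal genes, 95 in 6 lists, give the setting. The cathepsins, led by Ctsb (9348 TPM), Ctsd (6663 TPM) and Ctss (3590 TPM) with Ctsw lowest at 0.1 TPM, summed to 24780, 24990 and 24580 TPM over 13 genes. The vacuolar ATPase, led by Atp6v0c (1373 TPM), Atp6v0b (651 TPM) and Atp6v1b2 (513 TPM) with Atp6v0a2 lowest at 21.7 TPM, summed to 5008, 5734 and 5361 TPM over 17 subunits. The 45 genes thus held more summed level than either set in every library, but over more genes. Their median of 77.0 TPM lay under that of the cathepsins (612 TPM) and that of the pump (267 TPM). A 1.5-fold range was found for 2 of 11 detected cathepsins and 4 of 17 pump subunits, against 33.0% of all detected genes.

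Among other hydrolases and cofactors 21 of 22 were detected, among them Rnaset2b (609 TPM) and Scpep1 (377 TPM), with Arsg lowest at 0.633 TPM. All 9 sorting genes were detected, led by M6pr (391 TPM), a mannose 6-phosphate receptor, with Ap3b1 at 87.9 and Ap3d1 at 56.1 TPM and Sort1 lowest at 3.96 TPM. All 20 other membrane proteins were detected, led by Slc15a3 (1057 TPM), Cd164 (508 TPM) and Laptm4a (419 TPM), with Abca2 lowest at 1.62 TPM. Of 14 genes of the Rag, Ragulator and folliculin machinery, which controls where the MiT factors reside, 13 were detected, led by Rragc (234 TPM), Lamtor1 (184 TPM) and Lamtor5 (183 TPM), with Rragb lowest at 0.113 TPM. The 1.5-fold range was found for 3 of 21, 1 of 9, 5 of 20 and 4 of 13 detected genes of these lists, against 33.0% of all detected genes.

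Some levels carry a limit from the annotation. Of the 45 genes, 19 overlap another annotated gene and 5 of these overlap one on the same strand. Both were counted over whole gene spans, introns included, and shared exons were not examined. Whether reads were assigned by strand is not given in the sources used here. Reads from a stretch that Arsa, Idua, Sgsh, Acp2, Ppt1 or Lamp1, among others, shares with another gene may thus be assigned to either.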

How the data were processed

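PolyA RNA-seq of 3 libraries of 1 group was used. Per the deposited readme files, the authors used assembly mm10 and GENCODE M21; aligner, quantification program and versions: not given in the sources used here. The authors deposited, per library, a gene table with expected counts and TPM, a transcript table with expected counts, TPM, effective length and the transcript's percent of its gene, both from alignments to the transcriptome, and a second transcript table with estimated counts and TPM made from reads without an alignment file. TPM scales each library to the same total, so an abundant entry in 1 library lowers TPM elsewhere in it.

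From these, means, SDs, ratios and shares were computed (Python 3.11.15, pandas 2.3.3); log2 differences used log2(TPM + 0.1), which understates differences between low genes. Expected counts were rounded, scaled by TMM (edgeR 4.0.16, R 4.3.3; factors 0.963, 1.06 and 0.977) and tested per gene by chi-square at an adjusted p of 0.05 for genes whose counts averaged 10 or more. This test compares libraries, not conditions. On simulated data for that comparison (12451 genes), it called 77% of 100 genes changed 1.5-fold in 1 library, 88% of 100 changed 2-fold and 0.106% of 12251 unchanged genes. Those counts were drawn with counting error alone, so the last rate does not cover the spread between real libraries. DESeq2 1.42.0 size factors, another pseudocount, other filters, the second quantification and each library left out were alternatives. Promoter windows were from RefSeq.

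All 45 genes are named. Values in every library were set for the 12 highest and 6 lowest, the 8 with the widest range, the 17 pairs and the MiT factors; of other lists, the 3 highest and the lowest. A few genes that this rule names are not reported here. Neutrophil and osteoclast markers beyond this rule were named after their values were seen. The genes and lists were chosen with earlier results of these data known.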

Additional observations from a re-analysis of the deposited data

How the results depend on the processing

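All 45 genes kept at least 1 TPM without any 1 library, and 44 in the second quantification or at 5 TPM. The second quantification moved the median detected gene by -0.39, -0.08 and -0.24 on the log2 scale in replicates 1, 2 and 3, and in it Mir6236 and Klf10 took large shares; it gave a lower mean for 43 of 45 genes, by more than 1 SD for 31, and lowered the median level from 77.0 to 63.2 TPM, the summed level from 32090 to 24770 TPM, and gave 11 genes with a 1.5-fold range (43.5% of detected genes), or 8 (32.7%) after scaling to that median, chosen after seeing the data. Protein-coding transcripts only, also chosen afterwards, lowered the median to 68.2 TPM and the summed level to 29470 TPM. They turned the sign of Arsa against Arsb (-0.45), a pair that then did not stand apart. A 1.5-fold range was found for 4 genes in TMM-scaled counts per effective length (Lipa, Acp5, Lamp2 and Gpnmb; 32.2% of detected genes) and, on scales chosen afterwards, for 3 in TMM-scaled counts without length (without Gpnmb; 28.7%) and 6 in counts scaled to library totals (30.8%). Leaving out 1 library gave a median between 74.6 and 81.3 TPM and between 10 and 14 neighbours apart. With 1 library left out, that rule rests on 2 libraries. Between 1 and 5 genes had a 1.5-fold range (11.5% to 24.7% of detected genes, from 33.0%). A range over 2 libraries cannot exceed that over the 3 that hold them, so this count could only stay or fall. Between 35 and 38 genes varied (42.7% to 61.1% of genes tested, from 70.9%), on fewer counts. The cause of that lower number was not tested. Between 15 and 17 of 17 pairs stood apart under every alternative. No paired analysis was possible because all libraries belong to 1 group. With 3 libraries, SDs are rough, and Sgsh and the short transcripts rest on few counts.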
